A study of Mus musculus with 96 samples.

Results

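Haematopoietic stem cells of the HSC1 gate were split by whether the transcript of Vwf was counted in them, and every other gene was compared between the resulting groups. The cells with a Vwf read (Vwf-counted, raw count above 0) numbered 63 and those with none (Vwf-negative, raw count 0) numbered 29, of 92 cells that passed the quality filter and 96 cells sequenced. The labels name no difference between the groups. All cells came from bone marrow of C57BL/6 mice, 9 to 12 weeks old by the sample labels, and gave 1 library each. They were sorted on c-Kit, Sca-1 and CD150 and against lineage markers, Flt3, CD34 and CD48. Cells 1, 2, 6 and 36 were left out by the rule, for technical measures. Since the labels do not say which mouse gave which cell, each side of the split counts as 1 sample. No p-value or standard error is therefore given; a gene is described by its values, by the share of cells in which it was counted and by a fixed fold, and whether any difference would recur in other mice was not tested.

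Von Willebrand factor is a large adhesive glycoprotein that tethers platelets to injured vessel walls. It is made by megakaryocytes, which store it in the alpha granules that pass to platelets, and by endothelial cells, which store it with P-selectin in Weibel-Palade bodies. In the mouse, Vwf also marks part of the stem cell compartment, and stem cells that carry it have been described as biased toward platelet and myeloid output, with the Vwf-negative stem cells leaning toward lymphoid output. Platelet, lymphoid and quiescence genes were for this reason looked at as groups.

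Among the genes higher in Vwf-counted cells were Selp and Gp9, and the sequence just before the start of each is shown because these genes act with VWF in platelets and were also higher beside it here. Selp encodes P-selectin, the granule adhesion receptor, and Gp9 a subunit of the platelet receptor for VWF. The 250 bases before each start, from RefSeq on GRCm38.p6, plus strand, are given 5′ to 3′ with the letters GATA and GGAA, on either strand, in capitals (TATC and TTCC are their reverse complements). GATA is the core read by GATA factors and GGAA that of ETS factors such as Fli1.
Selp, chr1:164115014-164115263: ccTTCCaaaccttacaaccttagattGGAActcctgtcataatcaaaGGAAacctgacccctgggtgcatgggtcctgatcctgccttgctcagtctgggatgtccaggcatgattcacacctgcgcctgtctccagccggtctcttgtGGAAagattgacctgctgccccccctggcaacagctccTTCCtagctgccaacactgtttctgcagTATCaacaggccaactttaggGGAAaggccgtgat
Gp9, chr6:87777820-87778069: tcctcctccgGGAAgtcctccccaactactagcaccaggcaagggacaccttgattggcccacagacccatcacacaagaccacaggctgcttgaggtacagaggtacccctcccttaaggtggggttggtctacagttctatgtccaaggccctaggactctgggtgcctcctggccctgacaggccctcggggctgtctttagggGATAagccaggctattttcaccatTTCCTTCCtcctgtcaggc
The Selp stretch held 1 GATA and 6 GGAA matches and the Gp9 stretch 1 GATA and 3 GGAA matches, the last 2 in Gp9 adjoining each other. Such letters are common: GATA was found in 54.1% and GGAA in 93.4% of the same stretch of 27025 RefSeq genes. Of the 21 tested platelet genes matched to that table, 12 held GATA and 21 held GGAA. The matches describe the letters in this window and nothing of the factors.

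The split followed the Vwf values themselves, which are given as a description. Vwf was counted in 68.5% of the kept cells (95% exact Clopper-Pearson interval 58% to 77.8%, which covers counting error only, since reads carry no molecular identifiers). In the 63 Vwf-counted cells the raw count had a lowest value of 1, a median of 262 and a highest value of 1464, and the normalized count averaged 362 ± 347 (SD over cells). The level was not evenly spread over this range. Just inside the threshold lay 10 cells with 1 to 9 reads, 6 of them with exactly 1 read, and the next cell had 14; 7 cells had 10 to 99 reads and 46 had 100 or more. Just outside lay 29 cells at 0.

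**Figure D1:**
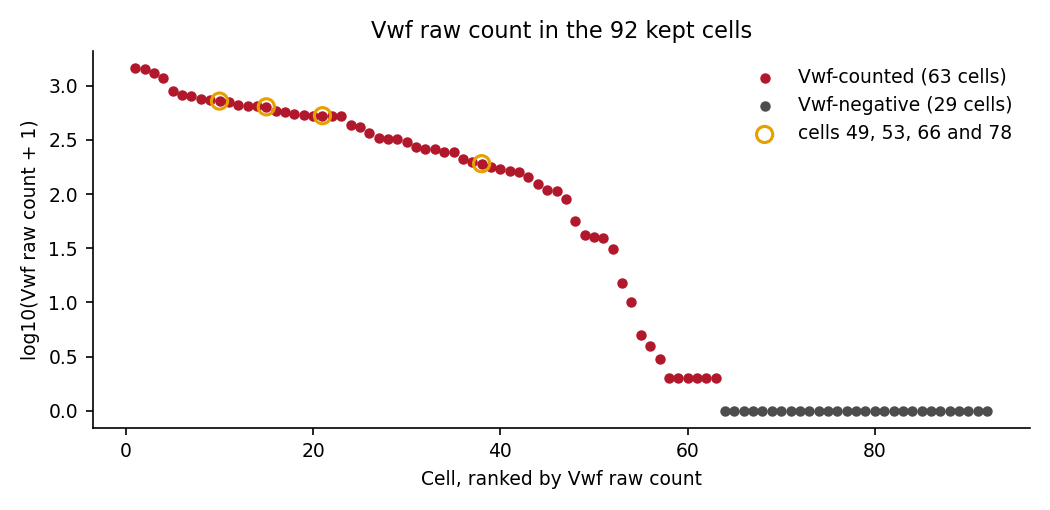
Raw Vwf count of each of the 92 kept cells, ranked, on a log10(count + 1) axis; red points are the 63 Vwf-counted cells and grey points the 29 Vwf-negative cells, with cells 49, 53, 66 and 78 circled. Most Vwf-counted cells sit between 100 and 1464 reads, 10 sit below 10, and all 4 circled cells are Vwf-counted.

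How often a transcript at this level is missed in such libraries can be read from spike-in RNAs, which were added to every well in the same amount. Of the 8 ERCC spike-ins whose mean normalized count lay within 3-fold of that of Vwf (247.9), the number of cells at 0 ran from 0 to 28 of 92, with a median of 6.5. The spike-in nearest in level, ERCC-00009, averaged 250.6 and was at 0 in 12 cells, 6 of them Vwf-counted and 6 Vwf-negative. The Vwf mean includes the 29 cells at 0, and in the Vwf-counted cells it was 362. Nearer that level, ERCC-00171 (345.2), ERCC-00136 (351.5) and ERCC-00108 (402.5) were at 0 in 0, 1 and 4 cells. A Vwf count of 0 is thus not proof that a cell lacked the transcript, and Vwf-negative cells that lacked it cannot be told apart from those in which it was missed.

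The groups were alike in the depth of their libraries. Gene counts per cell had a median of 1556593 in Vwf-counted cells (739093 to 3473151) and 1747691 in Vwf-negative cells (1092884 to 3242057), and detected genes a median of 6607 in Vwf-counted and 6555 in Vwf-negative cells. With each cell thinned to 739093 gene counts, medians of 6224 genes in Vwf-counted cells and 6244 in Vwf-negative cells remained. The ERCC share had medians of 1.16% in Vwf-counted and 1.33% in Vwf-negative cells, and the mitochondrial share 3.95% in Vwf-counted and 4.59% in Vwf-negative cells. Cells 49, 53, 66 and 78 stood apart: at equal depth they held reads of 37 to 53 of 54 genes of the G2 and M phases, against 7 to 21 in the other Vwf-counted cells and 7 to 18 in Vwf-negative cells. All 4 were Vwf-counted, with 190 to 722 raw Vwf reads, and results that rest on them are given with and without them.

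Levels below are normalized counts (reads divided by the cell's size factor), and the log2 ratio is that of the group means, Vwf-counted over Vwf-negative, each mean plus 1. A gene was tested against the fold when its mean over the 92 cells was at least 20 and it had reads in at least 10 of them, which 8764 genes other than Vwf did. Their median log2 ratio was 0.03. Of these genes 515 were at least 2-fold higher in Vwf-counted cells (5.88%) and 270 at least 2-fold lower (3.08%). Between geometric means, which weigh a few very high cells less, 608 were 2-fold higher and 692 lower, so higher genes outnumbered lower ones between arithmetic means only. At the fold of 1.5 used for lists, 1282 were higher (14.6%) and 923 lower (10.5%), and these shares are the background for every list. Single-cell levels varied widely, and a count near the background says nothing of its list. A mean over both groups also lets a gene pass the filter through the group in which it is high, so that counts over tested members are not counts over whole lists.

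The sorted identity was checked against its markers. Among markers of other blood cells, Cd48, Cd3e, Ly6g and Siglech had no read in any of the 63 Vwf-counted or the 29 Vwf-negative cells, and Hbb-b1, an adult globin, had reads in 5 Vwf-counted and 1 Vwf-negative cell. Others were counted more often: the integrin gene Itgam in 5 Vwf-counted and 6 Vwf-negative cells, Nkg7 of cytotoxic cells in 4 Vwf-counted and 3 Vwf-negative cells, the erythroid and megakaryocyte factor Gata1 in 8 Vwf-counted and 1 Vwf-negative cell, and Pf4, described with the platelet genes, in 20 Vwf-counted and 14 Vwf-negative cells. Endothelial cells make VWF too, and several of their defining genes were at or near 0. Cdh5, the endothelial cadherin, was counted in 1 Vwf-counted and 0 Vwf-negative cells, Plvap in 0 Vwf-counted and 1 Vwf-negative cell, and Sox17, Lyve1 and Aplnr in none. Kdr, a receptor of vascular growth factor, was counted in 9 Vwf-counted and 1 Vwf-negative cell, its relative Flt4 in 8 Vwf-counted and 1 Vwf-negative cell, and the tight junction gene Cldn5 in 6 Vwf-counted and 2 Vwf-negative cells, and their part in the results was not tested. Of 24 endothelial genes listed, 11 were high enough to be tested, most of which stem cells also express. In Vwf-counted cells 3 were at least 1.5-fold higher (27.3%, against 14.6% of all tested genes) and 0 lower (against 10.5%). Among the 3, Sox18 passed the filter only through the Vwf-counted cells, with a Vwf-negative mean of 4.76. Without the highest cell of each gene 1 was higher and 0 lower. Between geometric means 5 were higher and 1 lower, where 18.2% of all tested genes were higher and 18.8% lower. The summed normalized count of the list ran from 938 to 8550 in Vwf-counted cells and from 995 to 3899 in Vwf-negative cells, with medians of 2441 in Vwf-counted and 2127 in Vwf-negative cells.

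Platelet and megakaryocyte genes were more often higher than lower in Vwf-counted cells. Of 40 genes listed, 28 were tested, with a median log2 ratio of 0.33. Of these, 10 were at least 1.5-fold higher (35.7%, against 14.6% of all tested genes) and 1 lower (3.57%, against 10.5%). Among the 10, Clu, Selp, Treml1 and P2ry1 passed the filter only through the Vwf-counted cells. Their Vwf-negative means were 19.9, 12.1, 13.9 and 11.1. Thbs1, the 1 lower, had a Vwf-counted mean of 17.8 and passed only through the Vwf-negative cells. Without cells 49, 53, 66 and 78 the counts were 7 higher and 2 lower of 27 tested, with a median of 0.33, where 14.7% of all tested genes were higher and 10.7% lower. At equal depth a median of 19 of the 40 genes was counted per Vwf-counted cell (13 to 32) and of 16 per Vwf-negative cell (13 to 25), so the groups overlapped over most of their range.

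Clu, which encodes clusterin, a secreted chaperone carried in platelet alpha granules (chr14:65968483-65981548), showed the largest ratio of the platelet list. It was counted in 27 of 63 Vwf-counted cells (42.9%, interval 30.5% to 56%) and in 5 of 29 Vwf-negative cells (17.2%, 5.85% to 35.8%). Where counted, its level had a median of 232 and a highest value of 2046 in Vwf-counted cells, against a median of 123 and a highest value of 204 in Vwf-negative cells. The means were 162 ± 322 in Vwf-counted and 19.9 ± 52.5 in Vwf-negative cells, a log2 ratio of 2.96 (7.78-fold), and 2.66 without the highest cell. More cells held the transcript and those that did held more of it, although cells with no read made up the larger part of both groups.

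Selp was counted in 28 Vwf-counted cells (44.4%, 31.9% to 57.5%) and 6 Vwf-negative cells (20.7%, 7.99% to 39.7%). Its means were 68.7 ± 128 in Vwf-counted and 12.1 ± 45.5 in Vwf-negative cells (log2 ratio 2.42), and its highest values 572 in Vwf-counted and 237 in Vwf-negative cells. Gp9 was counted in 41 Vwf-counted cells (65.1%, 52% to 76.7%) and 12 Vwf-negative cells (41.4%, 23.5% to 61.1%). The Gp9 median was 79.9 in Vwf-counted and 0 in Vwf-negative cells and the means were 126 ± 164 in Vwf-counted and 51.3 ± 84.1 in Vwf-negative cells (log2 ratio 1.28). Where it was counted its median level was 137 in Vwf-counted and 119 in Vwf-negative cells, and its highest value 692 in Vwf-counted and 354 in Vwf-negative cells.

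Further platelet genes at least 1.5-fold higher were Treml1, a receptor of alpha granules, in 16 Vwf-counted and 3 Vwf-negative cells (log2 ratio 1.42), and P2ry1, a receptor for ADP on platelets, in 14 Vwf-counted and 2 Vwf-negative cells (1.96). A single cell held 37% of all P2ry1, and the ratio was 1.24 without it. Plek, encoding the protein kinase C substrate pleckstrin, was counted in 18 Vwf-counted and 4 Vwf-negative cells (1.23). The transcriptional regulators Zfpm1, the partner of GATA1 called FOG1, and Gfi1b had log2 ratios of 1.13 (Zfpm1) and 0.74 (Gfi1b). Gfi1b encodes a transcriptional repressor that acts in megakaryocyte and erythroid development. Runx1, a core regulator of blood cell formation, had 0.41, at 221 in Vwf-counted and 166 in Vwf-negative cells. Several other regulators lay nearer 0, among them Nfe2, at 1157 ± 620 in Vwf-counted and 1120 ± 576 in Vwf-negative cells (0.05), Tal1 (-0.05), Mef2c (-0.05) and Fli1 (0.16). Gata1 itself was below the filter, with reads in 8 Vwf-counted and 1 Vwf-negative cell.

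The mean levels of Pf4 and Itga2b, markers of the megakaryocyte lineage, rested on 4 cells. Pf4, the platelet factor 4 chemokine, averaged 243 in Vwf-counted cells and 48.8 in Vwf-negative cells (log2 ratio 2.29). Yet it was counted in a smaller share of Vwf-counted cells, 20 of 63 (31.7%, 20.6% to 44.7%), than of Vwf-negative cells, 14 of 29 (48.3%, 29.4% to 67.5%). Cells 49, 66 and 78 held 2233, 4768 and 6885 normalized Pf4 counts, and no Vwf-negative cell held more than 339. Without cells 49, 53, 66 and 78 the means were 21.4 in Vwf-counted and 48.5 in Vwf-negative cells and the ratio was -1.14, and between geometric means of all kept cells it was -0.59. Itga2b, which encodes CD41, had a ratio of 0.77 with these cells and -0.17 without them, at means of 36 in Vwf-counted and 40.5 in Vwf-negative cells. Unlike Pf4 it was counted in a larger share of Vwf-counted cells, 26 of 63 (22 of 59 without these cells), than of Vwf-negative cells, 8 of 29. In the same comparison Clu, Selp and Gp9 kept ratios of 2.99, 2.41 and 1.08.

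Thbs1, the alpha granule protein thrombospondin 1, was the 1 platelet gene at least 1.5-fold lower, with reads in 14 Vwf-counted and 10 Vwf-negative cells and means of 17.8 ± 71.4 in Vwf-counted and 53.9 ± 141 in Vwf-negative cells (log2 ratio -1.55). It too rested on few cells, and the ratio was -0.91 without the highest.

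**Figure D2:**
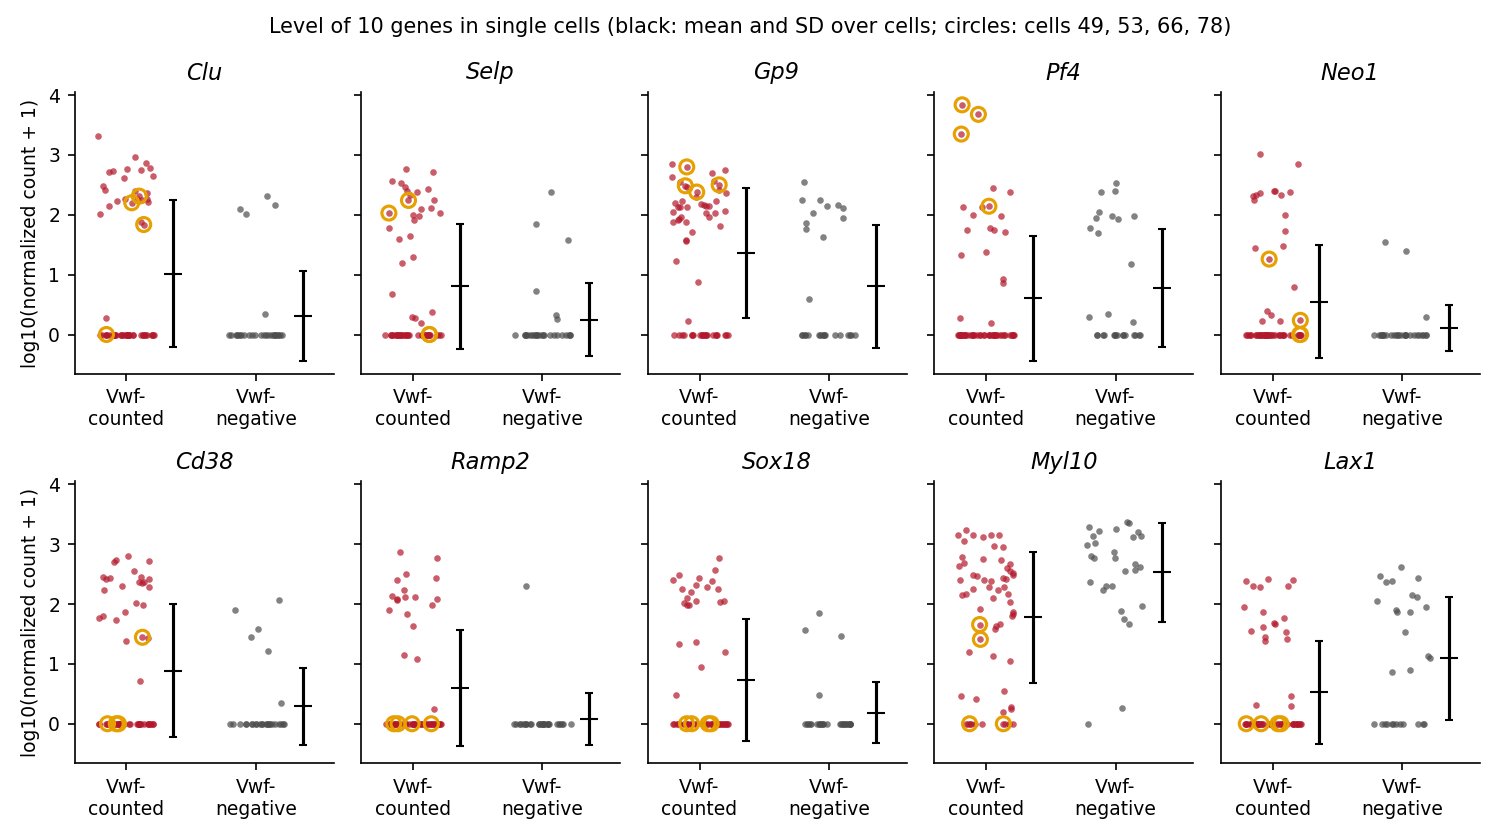
Normalized count of 10 genes in every cell, on a log10(normalized count + 1) axis, with Vwf-counted cells in red on the left and Vwf-negative cells in grey on the right of each panel; black marks are the mean and SD of these log values over cells, and circles mark cells 49, 53, 66 and 78. Clu, Selp, Neo1, Cd38, Ramp2 and Sox18 have more cells above 0 among Vwf-counted cells, Pf4 is led by 3 circled cells up to 6885, and Myl10 and Lax1 lie lower in Vwf-counted cells.

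Genes that help make, store or bind VWF formed a further list. Of 39 listed, 31 were tested, and 7 were at least 1.5-fold higher and 2 lower in Vwf-counted cells, with a median log2 ratio of 0.20. The counts were also 7 and 2 of 31 without cells 49, 53, 66 and 78, with a median of 0.17. Apart from Selp, Gp9, Gfi1b and Itga2b, which the platelet list shares, those higher were Stx3, a syntaxin of granule release (1.36), Itgav, the vitronectin receptor chain (0.82), and Synrg, a clathrin adaptor partner (0.64). Rab3a, a GTPase of regulated secretion, was lower, with reads in 10 Vwf-counted and 12 Vwf-negative cells (-1.59), as was Hps3, a subunit of a complex that forms lysosome-related organelles (-0.68). Furin, which cleaves the VWF propeptide, had a ratio of 0.31, and the folding enzymes P4hb and Pdia3 and the receptor Lman1, which carries coagulation factors out of the endoplasmic reticulum, had -0.18, -0.03 and 0.28. Gp1ba and Gp1bb, the chains of the VWF receptor that sit beside the Gp9 product, were below the filter, Gp1ba with reads in 5 Vwf-counted and 3 Vwf-negative cells and Gp1bb in 8 Vwf-counted and 1 Vwf-negative cell.

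The list with the largest share of members higher in Vwf-counted cells was that of genes known to be raised in stem cells of aged mice, although the mice here were young. This list was chosen after the data were seen. Of 30 listed, 21 were tested, and 12 were at least 1.5-fold higher (57.1%, against 14.6% of all tested genes). There was 1 lower, and the median log2 ratio was 0.85. Members such as Neo1, Cd38 and Ramp2, with Vwf-negative means of 2, 9.50 and 6.88, passed the filter only through the Vwf-counted cells. Without cells 49, 53, 66 and 78 the counts were the same, 12 and 1 of 21, and the median was 0.90. At equal depth, a median of 11 of the 30 genes was counted per Vwf-counted cell (2 to 20) and of 9 per Vwf-negative cell (2 to 14), and the summed normalized count of the list had medians of 2565 in Vwf-counted and 1599 in Vwf-negative cells. Vwf is itself among the genes raised with age and was kept off the list, while Clu and Selp are on both this list and the platelet list, so these lists are not separate views.

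Neo1, which encodes the guidance receptor neogenin (chr9:58874679-59036614), had the largest ratio of the list. It was counted in 21 Vwf-counted cells (33.3%, 22% to 46.3%) and 3 Vwf-negative cells (10.3%, 2.19% to 27.4%), with highest values of 1035 in Vwf-counted and 33.6 in Vwf-negative cells. The means were 59.5 ± 168 in Vwf-counted and 2 ± 7.48 in Vwf-negative cells (log2 ratio 4.33, or 3.90 without the highest cell). Cd38, an ectoenzyme that consumes NAD, was counted in 26 Vwf-counted and 6 Vwf-negative cells, at means of 90.4 ± 156 in Vwf-counted and 9.50 ± 26.2 in Vwf-negative cells (3.12). Ramp2, a partner of the receptor for adrenomedullin, was counted in 19 Vwf-counted cells (30.2%, 19.2% to 43%) and 1 Vwf-negative cell (3.45%, 0.0873% to 17.8%), with a log2 ratio of 2.80. The highest levels of Neo1 lay in Vwf-counted cells, yet most Vwf-counted cells had no read of Neo1, Cd38 or Ramp2.

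Sdpr, now called Cavin2 and encoding a protein of caveolae, was counted in 35 Vwf-counted and 8 Vwf-negative cells, with means of 190 ± 288 in Vwf-counted and 66.5 ± 159 in Vwf-negative cells (log2 ratio 1.5). Clca1, a regulator of chloride channels, was counted in 28 Vwf-counted and 5 Vwf-negative cells (1.33), and its highest value of all, 1010, was in a Vwf-negative cell, without which the ratio was 5.06. Slamf1 encodes CD150, a marker on which all these cells were sorted, and its transcript had medians of 152 in Vwf-counted and 0 in Vwf-negative cells, being counted in 44 Vwf-counted and 14 Vwf-negative cells (0.88). Sult1a1, a sulfotransferase, averaged 414 ± 641 in Vwf-counted and 203 ± 307 in Vwf-negative cells (1.02) but was counted in nearly the same share of both, 73% of Vwf-counted and 69% of Vwf-negative cells. Alcam, an adhesion molecule, was the member lower in Vwf-counted cells (-0.76). Aldh1a1, a retinaldehyde dehydrogenase, was at 285 ± 297 in Vwf-counted and 278 ± 316 in Vwf-negative cells (0.03).

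**Figure D3:**
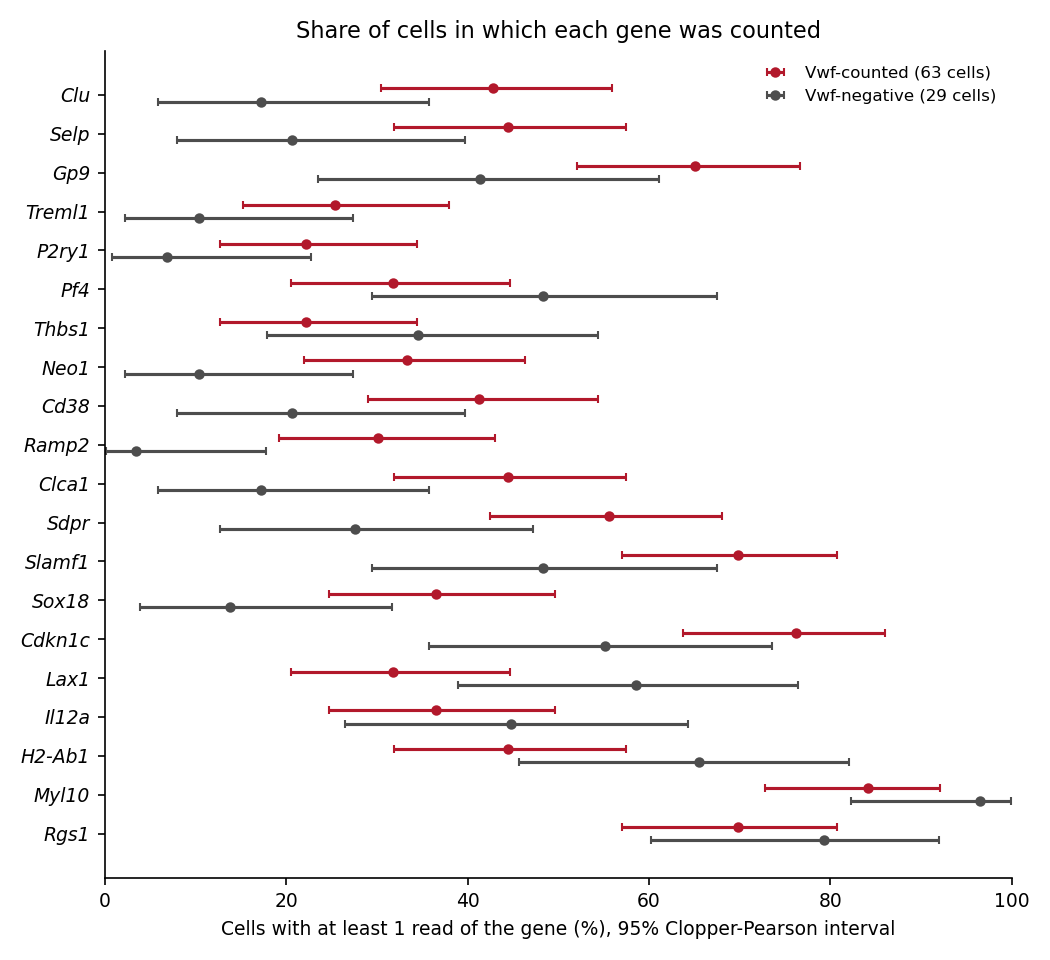
Share of Vwf-counted cells (red, above) and Vwf-negative cells (grey, below) with at least 1 read of each of 20 genes, in percent, with exact 95% Clopper-Pearson intervals that cover counting error only. Ramp2 was counted in 30.2% of Vwf-counted and 3.45% of Vwf-negative cells, and Pf4, Thbs1, Lax1, Il12a, H2-Ab1, Myl10 and Rgs1 lie lower in Vwf-counted cells. The genes were picked for this figure, and whether intervals overlap is no test of a difference.

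Lymphoid genes were mostly too low to compare. Of 46 listed, only 16 were tested, and 0 of these were at least 1.5-fold higher and 2 at least 1.5-fold lower in Vwf-counted cells, which is 12.5% where 10.5% of all tested genes were lower. Their median log2 ratio was -0.04, and it was -0.01 without cells 49, 53, 66 and 78. Between geometric means the median was -0.39, with 1 of the 16 higher and 5 lower, where 18.2% of all tested genes were higher and 18.8% lower. At equal depth a median of 12 lymphoid genes was counted per cell in Vwf-counted cells and also 12 in Vwf-negative cells. The 2 lower were Lax1, an adaptor that dampens antigen receptor signaling (chr1:133679017-133693022), and Il12a, the smaller subunit of interleukin 12. Lax1 was counted in 20 Vwf-counted cells (31.7%, 20.6% to 44.7%) and 17 Vwf-negative cells (58.6%, 38.9% to 76.5%), at means of 29.3 ± 67.3 in Vwf-counted and 76.6 ± 112 in Vwf-negative cells (-1.36). Il12a was at 39.2 ± 75.7 in Vwf-counted and 68.9 ± 116 in Vwf-negative cells (-0.80), and the ratio was -0.40 without the highest cell.

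The transcription factors of lymphoid priming lay on both sides of 0. Bcl11a, needed for lymphoid development, had a log2 ratio of -0.51 and was counted in 62 Vwf-counted and 29 Vwf-negative cells. Ikzf1, encoding Ikaros, had 0.32, Foxo1 0.46, Gata3 -0.07, Tcf3 0.11 and Notch1 0.33. The costimulatory receptor Cd27 had -0.39 and Il2rg, the shared cytokine receptor chain, -0.17. Genes that mark committed lymphoid cells could not be compared at this depth: Il7r, Dntt, Rag2, Igll1 and Ccr7 had no read in any cell, and Rag1 in 1 Vwf-counted and 0 Vwf-negative cells. Flt3, a receptor of lymphoid-primed progenitors that the gate excludes on the surface, had reads in 10 Vwf-counted and 7 Vwf-negative cells and was below the filter.

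Only 7 myeloid genes were tested, too few to read against the background, with 0 higher and 1 lower (14.3%), Csf3r, the receptor of the granulocyte growth factor (log2 ratio -0.81). Of 3 erythroid genes tested, Epor was higher (1.82, counted in 15 Vwf-counted and 4 Vwf-negative cells), Hbb-b2 lower (-0.59) and Car2 close to 0 (0.09).

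Quiescence genes were more often higher in Vwf-counted cells. Of 40 listed, 28 were tested, with a median log2 ratio of 0.40. Of these, 11 were at least 1.5-fold higher (39.3%, against 14.6% of all tested genes) and 2 lower (7.14%, against 10.5%). Without cells 49, 53, 66 and 78 there were 12 higher and 1 lower of 28, where 14.7% of all tested genes were higher and 10.7% lower. Only 2 of the 11, Nr4a1 and Gfi1, passed 2-fold, and at equal depth medians of 21 of the 40 genes were counted per Vwf-counted cell (13 to 28) and 19 per Vwf-negative cell (13 to 25). Cdkn1c, encoding the cell cycle inhibitor p57 (chr7:143458339-143461059), was counted in 48 Vwf-counted cells (76.2%, 63.8% to 86%) and 16 Vwf-negative cells (55.2%, 35.7% to 73.6%). Its means were 198 ± 235 in Vwf-counted and 131 ± 205 in Vwf-negative cells (0.59) and its medians 130 in Vwf-counted and 55.5 in Vwf-negative cells, with highest values of 830 in Vwf-counted and 837 in Vwf-negative cells, so the groups overlapped over the whole range. Cdkn1b, encoding the inhibitor p27, had -0.38, and Cdkn1a, encoding p21, had reads in only 5 cells of each group.

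Among the other members higher were the retinoblastoma relative Rbl1 (log2 ratio 0.94), the histone methyltransferase Ezh1 (0.72) and the angiopoietin receptor Tek (0.67). Egr1, an immediate early factor that holds stem cells in the niche, averaged 659 ± 866 in Vwf-counted and 340 ± 538 in Vwf-negative cells (0.95). Nr4a1 had 1.81. Egr1 and Nr4a1 are also immediate early genes. Of 17 tested immediate early genes, 6 were at least 1.5-fold higher (35.3%, against 14.6% of all tested genes) and 2 lower (11.8%, against 10.5%). Jun had 0.76 and Fos 0.93. Between geometric means 6 were higher and 5 lower, with a median log2 difference of 0.01. Without the highest cell of each gene 5 were higher and 4 lower. The Fos value was -0.45 between geometric means, and cell 89 held 18% of all its counts. Gfi1, a repressor that restrains stem cell proliferation, had 2.47, but cell 63 held 50% of its total and it was counted in 11 Vwf-counted and 6 Vwf-negative cells. Under 1 alternative setting the Gfi1 ratio was 0.06. Nfix, needed to keep stem cells, was lower (-0.62). Meis1 (0.07), Txnip (0.07) and Trp53 (-0.06), counted in all 63 Vwf-counted and all 29 Vwf-negative cells, were level. Other members counted in most cells were not. Zfp36, also an immediate early gene, was counted in 60 Vwf-counted and 27 Vwf-negative cells and was higher (0.70). Nfix, the lower member above, was counted in 56 Vwf-counted and 27 Vwf-negative cells.

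Genes of cell division gave a difference that rested on 4 cells. Of 54 G2 and M phase genes, 28 were tested and 14 were at least 1.5-fold higher in Vwf-counted cells against 2 lower, with a median log2 ratio of 0.64. Without cells 49, 53, 66 and 78, 22 were tested, 3 were higher and 3 lower and the median was 0.09. The median cell did not differ: at equal depth 14 of these genes were counted in Vwf-counted and 14 in Vwf-negative cells. Kif20b, a mitotic kinesin, was counted in 13 Vwf-counted cells (20.6%, 11.5% to 32.7%) and in 0 of 29 Vwf-negative cells, which allows a share of up to 10.3% (3 cells of 29). Cells 49, 53, 66 and 78 held 299 to 532 normalized Kif20b counts each, and without them it was counted in 9 Vwf-counted cells, whose group mean was then 14.5 in place of 41.1. Psrc1, a spindle protein, was counted in 14 Vwf-counted cells and 1 Vwf-negative cell (log2 ratio 5.25). The Psrc1 ratio was 4.93 without the 4 cells, but 0.05 when cells with 1 to 9 Vwf reads, 3 of which held Psrc1, were counted as Vwf-negative. Of 30 tested genes of the G1 and S phases, 3 were higher and 4 lower, and without the 4 cells 2 were higher and 10 lower of 28, with a median of -0.31. Mcm5, a subunit of the replicative helicase, was counted in 13 Vwf-counted and 14 Vwf-negative cells (log2 ratio -0.90, and -1.67 without the 4 cells).

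**Figure D4:**
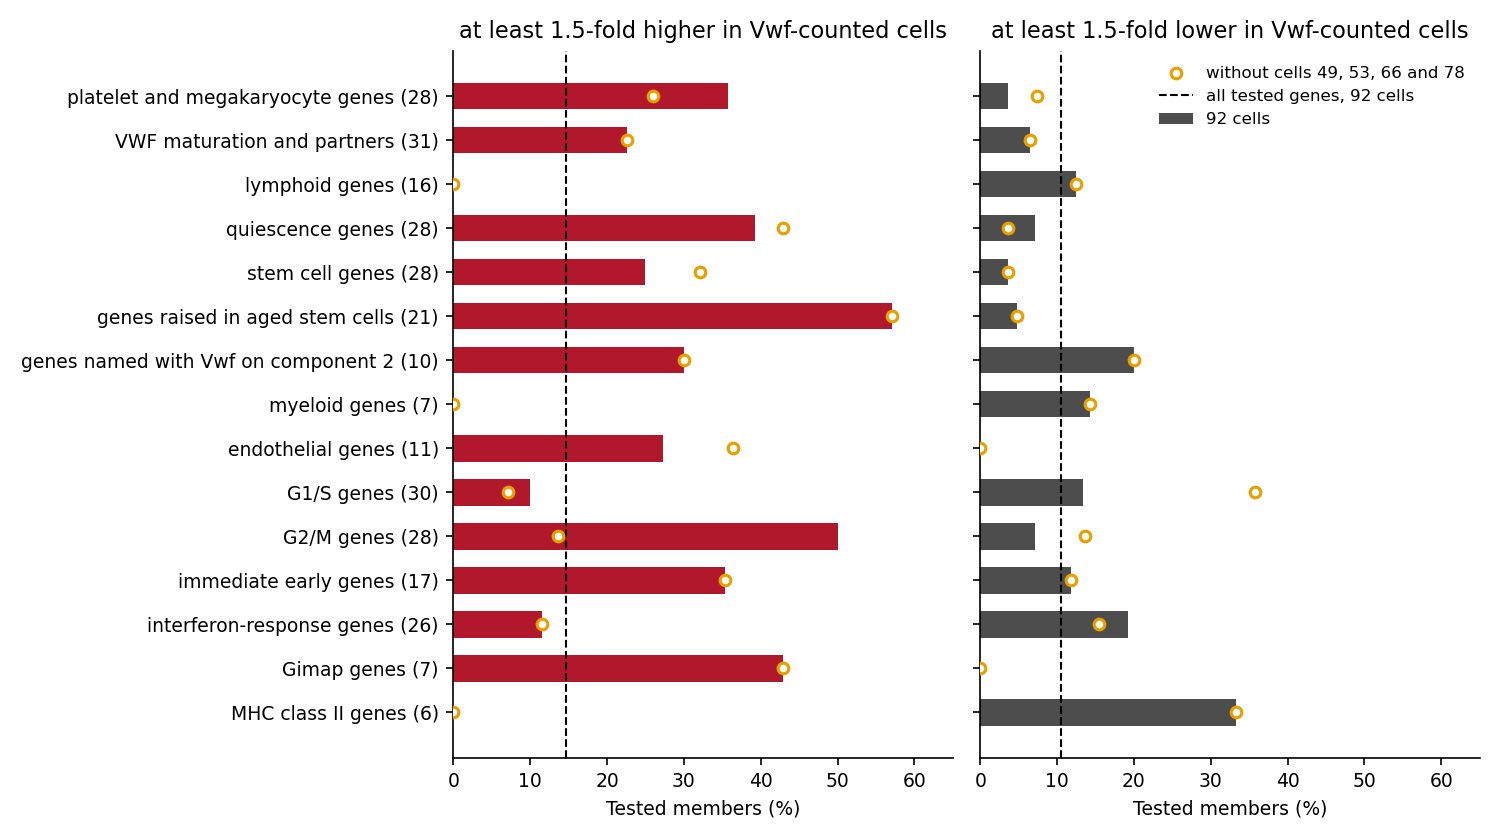
Percent of the tested members of 15 gene lists (number tested in brackets) that were at least 1.5-fold higher (left, red) or lower (right, grey) in Vwf-counted cells; dashed lines are all 8764 tested genes (14.6% and 10.5%) and open circles the same without cells 49, 53, 66 and 78. Genes raised in aged stem cells reach 57.1% higher with or without the 4 cells, G2/M genes reach 50% with them and 3 of 22 without them, and lymphoid genes have 0 higher.

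Stem cell genes used to define the compartment were mostly shared. Of 28 tested members of 30, 7 were at least 1.5-fold higher, 1 lower and 20 in between, with a median log2 ratio of 0.30. Hlf (0.18), Mllt3 (0.25), Lmo2 (0.12) and Procr, the endothelial protein C receptor (0.48), were counted in most cells of both groups. Sox18, a transcription factor better known from vessels (chr2:181669837-181671640), was counted in 23 Vwf-counted cells (36.5%, 24.7% to 49.6%) and 4 Vwf-negative cells (13.8%, 3.89% to 31.7%). Its means were 59.5 ± 113 in Vwf-counted and 4.76 ± 15.3 in Vwf-negative cells (3.39), and its highest values 581 in Vwf-counted and 71 in Vwf-negative cells. Ly6a, encoding the Sca-1 antigen of the gate, was the member lower in Vwf-counted cells, at 675 ± 616 there and 1146 ± 1267 in Vwf-negative cells (-0.76). Its medians were 485 in Vwf-counted and 828 in Vwf-negative cells.

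Of 26 tested interferon-response genes, 3 were at least 1.5-fold higher (11.5%, against 14.6% of all tested genes) and 5 lower (19.2%, against 10.5%) in Vwf-counted cells, with a median log2 ratio of -0.20. Irf7 (-1.74), a master regulator of the response, and Oas2 (-2.42), a sensor of viral RNA, were the lowest. For Irf7, cell 3, a Vwf-negative cell, held 22% of all counts. Over the alternative settings, Irf7 stayed at least 1.5-fold lower in 14, and in 1 its ratio was -0.26. Irf7 was counted in a larger share of Vwf-counted cells, 31 of 63, than of Vwf-negative cells, 12 of 29. Of 6 tested genes of MHC class II, which present antigen to T cells, 0 were higher and 2 lower, with a median of -0.54. H2-Ab1 was counted in 28 Vwf-counted cells (44.4%) and 19 Vwf-negative cells (65.5%), at means of 121 ± 240 in Vwf-counted and 187 ± 225 in Vwf-negative cells (-0.62). H2-DMa, which helps load peptides, was counted in 55 of 63 Vwf-counted and 29 of 29 Vwf-negative cells (-0.53). The shares of cells at equal depth were lower in Vwf-counted cells for all 6 of these genes, Cd74 included, whose mean was slightly higher (0.12). Of 7 tested Gimap genes, GTPases of lymphocyte survival, 3 were higher and 0 lower between arithmetic means, and 2 higher and 2 lower between geometric means.

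A list of genes that the study placed with Vwf on the second principal component was chosen on these same cells and is no independent evidence of direction. Of its 10 tested genes, 3 were higher (Clu, Sult1a1 and Cdkn1c) and 2 lower (Rgs1 and Ctla2b) by at least 1.5-fold. Rgs1, which turns off G protein signaling, averaged 358 ± 629 in Vwf-counted and 939 ± 1664 in Vwf-negative cells (log2 ratio -1.39), with medians of 2.55 in Vwf-counted and 426 in Vwf-negative cells. Ctla2a and Ctla2b, protease inhibitors, had -0.34 and -0.69.

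Over all genes, those with the largest gain in the share of cells at equal depth were chosen for that difference, so the values describe them. Klf3, a zinc finger repressor, was counted in 74.6% of thinned Vwf-counted cells and 34.5% of thinned Vwf-negative cells, with means of 75.5 ± 95.7 in Vwf-counted and 36 ± 74.3 in Vwf-negative cells (log2 ratio 1.05, but -0.13 with the 4 filtered cells put back). Ubr2, a ubiquitin ligase of the N-end rule, was counted in 73% of Vwf-counted and 34.5% of Vwf-negative cells and had a log2 ratio of 1.77. Others were Inpp1, an inositol phosphatase, Bcl10, an adaptor of NF-kB signaling, Snrk, a kinase related to AMPK, St6galnac6, a sialyltransferase, and Ppp2ca, the catalytic subunit of protein phosphatase 2A, with ratios of 0.64 to 2.51. In all, 2.29% of tested genes gained and 2.48% lost 20 percentage points or more in the share of cells, so gains were no more frequent than losses.

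The largest losses of share were in Adpgk, an ADP-dependent glucokinase, counted in 34.9% of thinned Vwf-counted and 72.4% of thinned Vwf-negative cells (log2 ratio -1.19), and Rasa4, an inhibitor of Ras, in 25.4% of Vwf-counted and 62.1% of Vwf-negative cells (-1.86). Cd72, a coreceptor of B cells, was counted in 12 Vwf-counted and 16 Vwf-negative cells (-1.60), Slc16a12, a transporter of creatine, in 17 Vwf-counted and 17 Vwf-negative cells (-1.67), and Bop1, a factor of ribosome assembly, in 33 Vwf-counted and 23 Vwf-negative cells (-0.95). Among the 1473 tested genes counted in at least 90% of cells, the ratio ran from -1.19 for Pisd-ps1, whose name marks it as a pseudogene so that its reads are uncertain, to 1.85 for 2410018M08Rik, with medians of only 3.81 in Vwf-counted and 2.99 in Vwf-negative cells. Anp32a, an acidic nuclear phosphoprotein, had 1.04. Higd2a, an assembly factor of cytochrome c oxidase, had medians of 153 in Vwf-counted and 89.7 in Vwf-negative cells (0.88), and Celf1, an RNA-binding protein, a ratio of 0.85. Hmgb2, a chromatin protein of dividing cells, had 0.94 with and 0.13 without cells 49, 53, 66 and 78. Tnfaip8, a regulator of apoptosis, had medians of 354 in Vwf-counted and 639 in Vwf-negative cells (-0.80), and Birc6, an inhibitor of apoptosis, a ratio of -0.70.

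Whether a gene followed the amount of Vwf, and not just its presence, was described over 4 classes of raw Vwf count: 0 (29 cells), 1 to 9 (10 cells), 10 to under 500 (30 cells) and 500 or more (23 cells). Clu was counted in 5, 1, 9 and 17 cells of these classes, low to high, which is 17.2%, 10%, 30% and 73.9%, and its mean was 19.9, 0.0909, 81 and 337. Sdpr was counted in 8, 3, 14 and 18 cells, with means of 66.5, 32.1, 122 and 347. Both were highest in the class with most Vwf. Selp, counted in 6, 1, 16 and 11 cells, and Cd38, in 6, 1, 15 and 10 cells, were counted most often in the class of 10 to under 500 and nearly as often in the highest.

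Among genes picked on the split, the 10 cells with 1 to 9 Vwf reads lay nearer the Vwf-negative cells in some. In others they lay nearer the other Vwf-counted cells. Of 8 genes taken after their values were seen as higher in Vwf-counted cells (Clu, Selp, Neo1, Sox18, Cd38, Ramp2, Gp9 and Clca1), cells with at least 10 Vwf reads held a median of 4, cells with 1 to 9 reads a median of 1 and Vwf-negative cells a median of 1. At least 4 of the 8 were counted together in 31 of the 53 cells with 10 or more Vwf reads, in 0 of the 10 cells with 1 to 9 and in 0 of the 29 Vwf-negative cells. Since the genes were picked on the split, the low counts of Vwf-negative cells follow from the choice. Gp9 was an exception among the 8, with reads in 6 of the 10 cells and a mean of 122, against 12 of 29 Vwf-negative cells and a mean of 51.3. Klf3 and Ubr2 were each counted in 7 of the 10 cells and St6galnac6 in 6. Of 29 Vwf-negative cells, 13 (Klf3), 12 (Ubr2) and 6 (St6galnac6) had reads. These genes were picked on a split that counts the 10 cells as Vwf-counted, so nearness to that side follows in part from the choice.

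**Figure D5:**
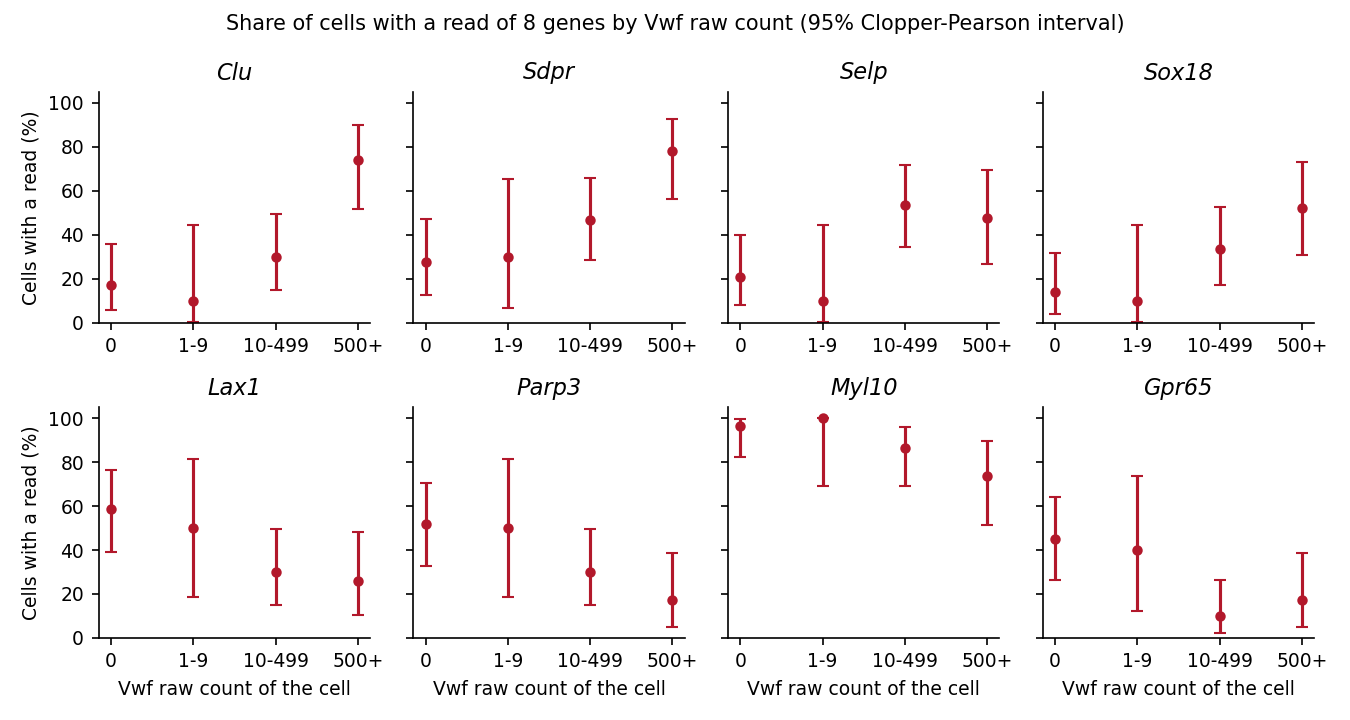
Share of cells with a read of each of 8 genes, in percent with exact 95% intervals, by raw Vwf count of the cell: 0 (29 cells), 1 to 9 (10), 10 to under 500 (30) and 500 or more (23). Clu and Sdpr reach 73.9% and 78.3% in the highest class, and Lax1, Parp3 and Gpr65 lie lower in the upper classes, with wide intervals throughout.

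Across the 92 cells, on log10(normalized count + 1), genes with a high Pearson r with Vwf were Clu (r = 0.49, Spearman's rho = 0.50), Tpcn1, a calcium channel of endolysosomes (0.41 and 0.40), and Clca1 (0.40 and 0.34). These were picked for their r, share the cells and the split with it, and are a description. Within the 63 Vwf-counted cells r was 0.50 for Clu and 0.43 for Tpcn1, but 0.14 for Gp9, -0.02 for Klf3 and -0.02 for Ubr2. Clu and Tpcn1 were picked for their r over cells that include these 63, and Klf3 and Ubr2 for their share of cells. The contrast between them therefore follows in part from the choice.

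The lowest values were those of Myl10, a myosin light chain (r = -0.40, rho = -0.40), Parp3, a poly-ADP-ribose polymerase of DNA repair (-0.37 and -0.39), Gpr65, an acid-sensing receptor of immune cells (-0.37 and -0.33), and Glipr1 (-0.36). Myl10 (chr5:136688892-136701857) was abundant and had medians of 147 in Vwf-counted and 577 in Vwf-negative cells, with means of 318 ± 449 in Vwf-counted and 790 ± 728 in Vwf-negative cells (log2 ratio -1.31). Over the 4 classes of Vwf count its mean was 790, 403, 408 and 164. Parp3 had means of 113, 39.9, 26.8 and 12.0 over the same classes, and Lax1, the lymphoid adaptor above, 76.6, 67.4, 28.2 and 14.1, each class lower than the one before it.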

How the data were processed

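The authors sequenced 1 library per sorted cell and counted reads per gene; the deposited values are raw counts, which were not normalized and carry no molecular identifiers. Alignment to mm10 and counting used HTSeq 0.6.1, STAR 2.3.0 and SAMtools 0.1.18 by the submitters' notes. The table holds 38406 genes beside 92 spike-in RNAs. The 92 kept cells held 739093 to 3473151 gene counts each, and intervals cover counting error only.

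Cells were split by the raw Vwf count. Size factors were medians of ratios over the 602 genes counted in every kept cell. The log2 ratio of group means used a pseudocount of 1, over genes with a mean of at least 20 and reads in at least 10 cells. Fixed folds, 1.5 for lists and 2 for all genes, took the place of tests, since the labels name no animal. Thinning drew each cell down to 739093 gene counts. Work was done in Python 3.11.15 (scipy 1.17.1, pandas 2.3.3, numpy 2.4.6, matplotlib 3.10.9), and the steps were tested on simulated data.

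The members and the gene lists were chosen with earlier results of these data known. Named genes, 175 in all, were Vwf; the 12 tested genes with the largest gain and the 12 with the largest loss in the share of thinned cells, past 1.5-fold the same way; the 6 highest and 6 lowest ratios among genes counted in at least 90% of cells; up to 5 highest and 5 lowest tested members of each list; all genes named with Vwf on the study's second component; and the 8 highest and 4 lowest r with Vwf. Other members of these lists are named for completeness, after their values were seen; a few genes that the rule names are not reported here. Promoters and coordinates came from RefSeq (GRCm38.p6), where 173 named genes had a position. Alternatives were other size factors, filters, pseudocounts, cell sets, depths, Vwf thresholds and group summaries.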

Additional observations from a re-analysis of the deposited data

Results flagged for a closer look

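Cell 1, one of the 4 cells left out, held 633845 gene counts and had 232 raw Vwf reads, a signal in a cell that no comparison above uses. Its count lies within the range of the Vwf-counted cells. Of the other cells left out, cell 6 had 1 Vwf read and cells 2 and 36 had 0.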

How the results depend on the processing

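Of 174 named genes other than Vwf, 111 were past 1.5-fold, and 101 of these kept their direction under every alternative run, 49 also their side of the fold. No paired analysis was possible because the groups are made of different cells with no label that pairs them. Depth limits the comparison, since many of the genes named had no read in many cells, and cells of 1 sample say nothing of the spread between mice. The cause of each change below was not tested except where the setting itself shows it.

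Main counts were 515 genes 2-fold higher and 270 lower; platelet 10 higher and 1 lower; lymphoid 0 and 2; quiescence 11 and 2; aged 12 higher; G2/M 14 higher. Counts that moved by over 1.5 times were as follows. With no filter (21210 genes): 2264 genes higher and 1403 lower, platelet 16 higher and 3 lower, lymphoid 5 higher and 7 lower, quiescence 4 lower and G2/M 37 higher. With the strict filter (3323 genes): 30 genes higher and 13 lower, platelet 4 and 0, lymphoid 0 lower, quiescence 4 and 0, aged 6 and G2/M 2 higher. With a pseudocount of 10: 278 genes higher, 164 lower and quiescence 0 lower. Thinned to equal depth (6307 genes): 161 genes higher and 97 lower, platelet 0 lower, lymphoid 1 lower and G2/M 6 higher. By geometric means: 692 genes lower, platelet 2 lower, lymphoid 1 higher and 5 lower and G2/M 8 higher. Within strata of detected genes: 925 genes higher, lymphoid 2 higher and 1 lower and quiescence 1 lower. The 29 cells with most Vwf against Vwf-negative cells: 540 genes lower, lymphoid 4 lower and G2/M 9 higher. ERCC size factors: lymphoid 2 higher and 4 lower and quiescence 1 lower. Total-count size factors: quiescence 1 lower. All 96 cells: lymphoid 1 higher. Without cells 49, 53, 66 and 78: platelet 2 lower, quiescence 1 lower and G2/M 3 higher. Cells with 1 to 9 Vwf reads counted as Vwf-negative, a choice made after seeing the data like that of the aged and G2/M lists: 341 genes higher and quiescence 1 lower. The share of Vwf-counted cells was 57.6% at a threshold of 10 reads.

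Among genes past 1.5-fold, these log2 ratios changed sign: with all 96 cells Klf3 (-0.13) and Ifit1 (-0.37); without cells 49, 53, 66 and 78 Pf4 (-1.14) and Itga2b (-0.17); with the cells of most Vwf Gbp3 (-0.14); by geometric means Pf4 (-0.59), Pola1 (-0.11), Fos (-0.45), Ifi44 (0.26) and Isg15 (0.11); and with 1 to 9 Vwf reads counted as Vwf-negative Anapc7 (-0.36). Of the 63 named genes within 1.5-fold, whose ratios lie near 0, 29 changed sign under at least 1 alternative.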
